A study of Mus musculus with 6 samples.

Results

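The genes described here are 10 regulators and machines of the mitochondrial network, read from RNA sequencing of mouse hearts. They are the coactivators Ppargc1a and Ppargc1b, the transcription factors Esrra and Nrf1, the mitochondrial DNA factor Tfam, the fusion GTPases Mfn1, Mfn2 and Opa1, the fission GTPase Dnm1l and the mitophagy kinase Pink1. The list was chosen with earlier results of these data known, and its rows were then taken by symbol alone. Each symbol had 1 row, and all 10 were found among the 26835 genes of the deposited table. Of these, 9 had a mean of at least 1 FPKM (fragments per kilobase of gene, scaled for sequencing depth) and were among the 10329 genes tested. Nrf1 fell below that minimum. The CFZ_EA mice received carfilzomib at 8 mg/kg by intraperitoneal injection and electroacupuncture at the point PC6, the CFZ mice received the same dose of carfilzomib without needling, and the control mice were injected with 10% DMSO. Carfilzomib irreversibly inhibits the proteasome and is given against multiple myeloma, and electroacupuncture passes current through needles in the skin. All mice were wild-type C57BL/6, aged 7 to 8 weeks and about 20 g in weight, and each of the 3 groups had 2 libraries. Days 0, 2, 4 and 6 stand in the labels of all libraries, with no event named for any of them. The labels give neither the part of the heart taken nor whether replicates were separate mice. The p-values thus cover the spread among these libraries only, which may be technical.

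Heart muscle renews a very dense mitochondrial network, and its genes are split between the nucleus and the mitochondrial DNA. PGC-1alpha and PGC-1beta, the products of Ppargc1a and Ppargc1b, do not bind DNA but are recruited by factors such as ERRalpha, encoded by Esrra, and nuclear respiratory factor 1, encoded by Nrf1, to raise nuclear genes of respiration. The nuclear respiratory factor is a different protein from the proteasome regulator Nfe2l1, which is also called NRF1. Tfam packages mitochondrial DNA and starts its transcription. Mitofusins join the outer membranes of neighbouring mitochondria, Opa1 joins the inner membranes and shapes the cristae, Dnm1l (DRP1) constricts mitochondria for division, and Pink1 marks damaged mitochondria for removal.

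Promoter windows are shown for 3 of the genes: Opa1, which varied most between libraries, Pink1, which had the highest level, and Tfam, whose human counterpart is a textbook target of nuclear respiratory factor 1 and GABP. Each window runs from 250 bases before to 50 bases after the annotated start, is taken from RefSeq on GRCm38.p6, and is printed 5′ to 3′ on the strand of the gene. Capitals mark matches to the NRF1 element (GCGCA, any base, then GCGC) in Opa1 and, read on the other strand, Pink1, and to the ETS core CCGGAAG, which GABP binds, in Tfam. The windows lie at chr16:29579084-29579383 on the plus strand, chr4:138326247-138326546 on the minus strand and chr10:71237995-71238294 on the minus strand.
Opa1: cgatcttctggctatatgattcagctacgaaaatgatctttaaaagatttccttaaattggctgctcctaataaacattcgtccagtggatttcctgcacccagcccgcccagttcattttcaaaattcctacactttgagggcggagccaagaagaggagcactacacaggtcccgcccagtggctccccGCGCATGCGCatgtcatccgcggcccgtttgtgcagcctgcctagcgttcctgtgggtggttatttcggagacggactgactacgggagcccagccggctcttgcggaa
Pink1: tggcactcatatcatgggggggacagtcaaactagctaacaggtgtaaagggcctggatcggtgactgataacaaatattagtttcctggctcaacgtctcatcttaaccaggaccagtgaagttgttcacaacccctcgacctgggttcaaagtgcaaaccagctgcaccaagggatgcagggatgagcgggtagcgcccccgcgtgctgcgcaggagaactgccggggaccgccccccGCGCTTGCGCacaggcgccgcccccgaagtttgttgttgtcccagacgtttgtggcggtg
Tfam: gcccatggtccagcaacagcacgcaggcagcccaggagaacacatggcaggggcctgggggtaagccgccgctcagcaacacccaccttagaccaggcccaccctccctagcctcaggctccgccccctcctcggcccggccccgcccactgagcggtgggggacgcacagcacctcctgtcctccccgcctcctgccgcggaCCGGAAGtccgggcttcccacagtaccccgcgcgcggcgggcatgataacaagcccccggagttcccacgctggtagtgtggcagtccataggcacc

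Of the 10 genes 9 had a window in the RefSeq table, 13 windows in all, and that of Ppargc1b was not analysed here. Searched on both strands, the NRF1 element was present in 2 genes, Opa1 (59 bases before the start) and Pink1 (10 bases before), and in 4.60% of all 32851 windows. The ETS core was present in 3 genes, Tfam (47 bases before the start), Mfn1 (44 bases before) and 1 of the windows of Dnm1l, and in 8.86% of all windows. The ERR element TNAAGGTCA and the cAMP response element TGACGTCA, held by 1.28% and 1.79% of all windows, were in none of the 13. A match is a description of these letters and says nothing of binding.

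Estimated counts totalled 50013990 to 75742448 per library. All 12 cardiomyocyte markers averaged at least 1 FPKM and 0 of 6 lymphocyte markers did. Control replicate 2 stood apart from the other libraries on the main axis of variation in log2 CPM (counts scaled for sequencing depth), at 48.0 against -22.1 to 0.373 elsewhere. Its mitochondrially encoded genes held 14.8% of its counts, against 17.9% to 21.3% in the other libraries. Its summed fibroblast and macrophage markers were 1758 and 931 FPKM, against 562 to 857 and 243 to 319 FPKM in the other libraries, and its cardiomyocyte markers were lowest, at 29928 FPKM against 33599 to 38467 FPKM. Markers also separated whole groups. Summed atrial markers were 1117 and 5905 FPKM in CFZ_EA, 456 and 347 FPKM in CFZ, and 3010 and 1836 FPKM in control, so both CFZ libraries were lowest. The mean log2(FPKM + 1) of the cardiomyocyte markers was 9.98 and 9.84 in CFZ_EA, 9.97 and 9.96 in CFZ, and 9.75 and 9.73 in control, lowest in both controls. In summed FPKM, however, control replicate 1 (34514 FPKM) lay above CFZ_EA replicate 2 (33599 FPKM), so that separation depended on the measure. Erythroid markers summed to 2466 and 3470 FPKM in CFZ_EA, 2654 and 3316 FPKM in CFZ, and 4962 and 5666 FPKM in control. Epicardial markers summed to 5.07 and 13.7 FPKM in CFZ_EA, 4.77 and 4.17 FPKM in CFZ, and 22.8 and 56.2 FPKM in control, so both were highest in the controls. Fibroblast markers summed to 845 and 857 FPKM in CFZ_EA, 650 and 562 FPKM in CFZ, and 808 and 1758 FPKM in control. Endothelial markers summed to 267 and 276 FPKM in CFZ_EA, 319 and 356 FPKM in CFZ, and 324 FPKM in both controls. Macrophage markers summed to 243 and 285 FPKM in CFZ_EA, 243 and 277 FPKM in CFZ, and 319 and 931 FPKM in control. So fibroblast markers were lowest in both CFZ libraries, endothelial in both CFZ_EA libraries, and macrophage highest in both controls. The part of these shifts in the values of the 10 genes was not tested. In a piece of tissue, fewer cells of a type and less RNA per cell cannot be told apart.

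The 10 genes spanned more than 2 orders of magnitude in level. Pink1 was highest, with a mean of 273 ± 19.4 FPKM over the 6 libraries (SD, n = 6), followed by Mfn2 at 130 ± 11.7, Esrra at 41.7 ± 1.85 and Mfn1 at 28.1 ± 1.82 FPKM. These 4 kept this order in 6 of 6 libraries without overlap of their ranges. Opa1 at 7.44 ± 2.56, Dnm1l at 5.86 ± 1.58 and Tfam at 5.25 ± 0.312 FPKM formed a middle group whose ranges overlapped, so their order was not fixed: Opa1 lay above Dnm1l in 5 libraries and Dnm1l above Tfam in 4. Ppargc1a averaged 3.05 ± 0.672 FPKM and exceeded Ppargc1b (1.22 ± 0.156 FPKM) in 6 of 6 libraries. Nrf1 was lowest at 0.689 ± 0.298 FPKM and overlapped Ppargc1b.

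The position of Nrf1 depended on the length used. The deposited FPKM of a gene was its count divided by the depth and a fixed length, which for Nrf1 came to 10401 bases, close to the 10282 bases of all its annotated exons in GENCODE M21 added up, while its longest single transcript has 4042 bases. Rescaled to the longest transcript, Nrf1 averaged 1.77 and Ppargc1b 1.34 in units of FPKM, and the other 8 genes kept their order. On that scale Nrf1 would have passed the minimum of 1.

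**Figure D1:**
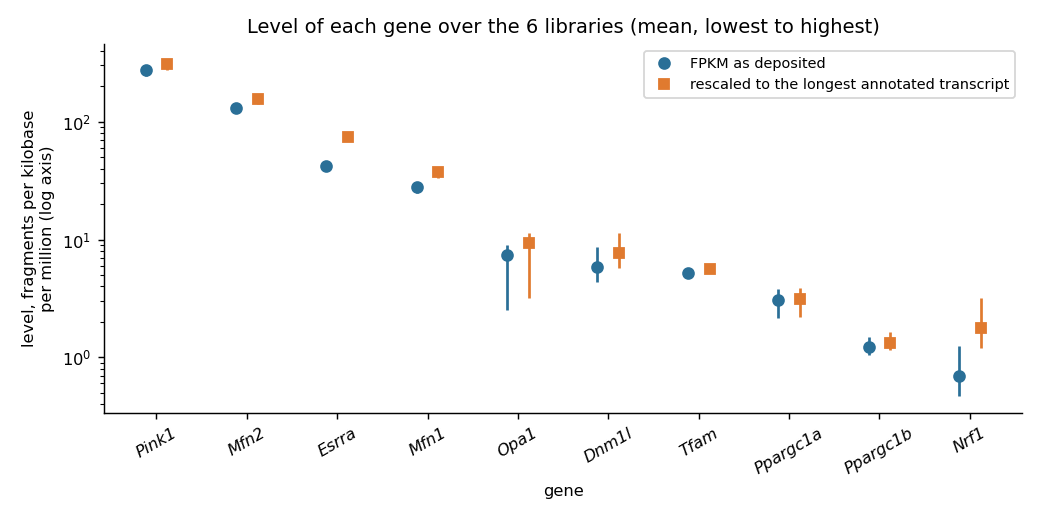
Level of each of the 10 genes on a log axis, as deposited FPKM (circles) and rescaled to the longest annotated transcript (squares). Symbols are means over 6 libraries and lines run from the lowest to the highest library. Pink1 (273 FPKM) and Nrf1 (0.689 FPKM) are the ends of the deposited scale, and Nrf1 passes Ppargc1b after rescaling.

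No gene of the 10 was called in any comparison. With edgeR's quasi-likelihood test and Benjamini-Hochberg adjustment over 10329 genes, 0 of the 9 tested members had an adjusted p under 0.05, 0 had an unadjusted p under 0.05, and DESeq2 and limma also called 0. Over all genes tested, edgeR called 0.0194% for CFZ_EA against CFZ, 0.029% for CFZ against control and 0% for CFZ_EA against control. DESeq2 called more of them: 0.532% (0.368% higher, 0.165% lower), 1.34% (0.261% higher, 1.07% lower) and 0.494% (0.252% higher, 0.242% lower) in these comparisons. Limma on log2(FPKM + 1) called 0.0194%, 0.0194% and 0%. At an unadjusted p under 0.05, 2.01% of genes were higher and 1.07% lower for CFZ_EA against CFZ (3.09% in all), 1.82% and 5.9% for CFZ against control (7.72%), and 1.47% and 3.66% for CFZ_EA against control (5.13%). The values below are therefore levels with their spread, and the intervals say how large a difference the data still allow.

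**Figure D2:**
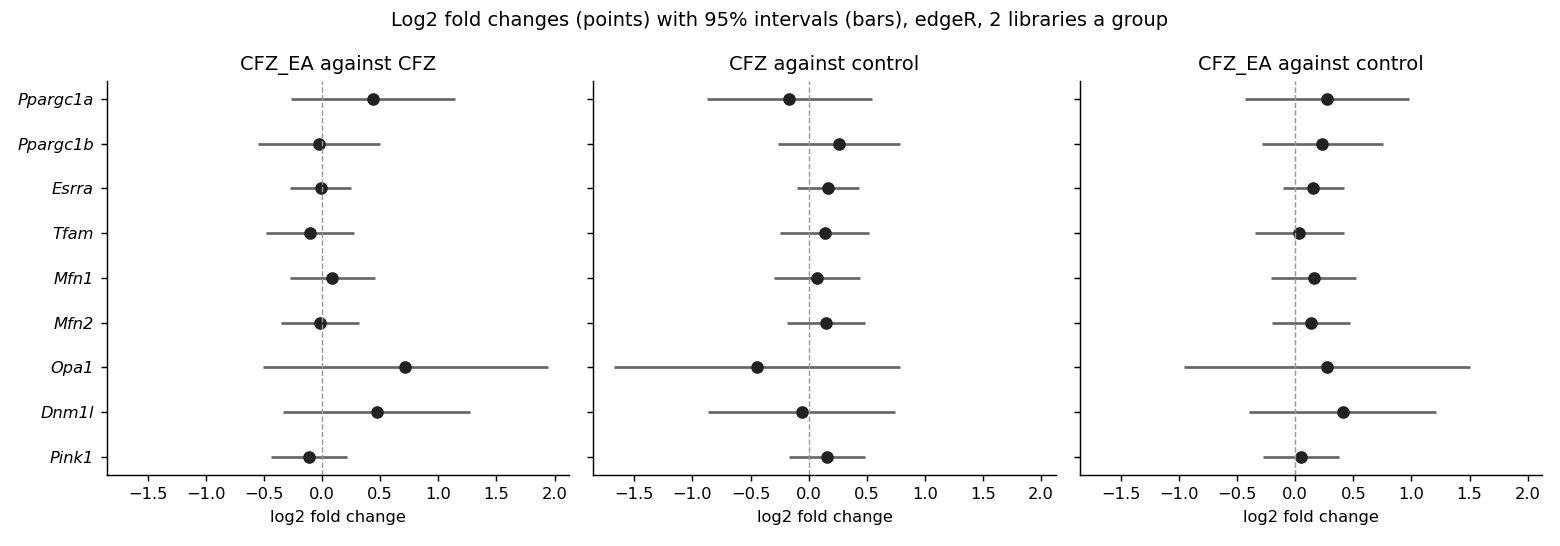
Log2 fold changes of the 9 tested genes in 3 comparisons, with 95% intervals from the edgeR fit (2 libraries per group). Every interval includes 0, and those of Opa1 are widest and those of Esrra narrowest.

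The coactivator Ppargc1a (ENSMUSG00000029167, GRCm38 chr5:51454250-51567704) was higher with electroacupuncture than without it in these carfilzomib-treated hearts, but by less than the test could call. It measured 3.21 and 3.82 FPKM in CFZ_EA, 3.11 and 2.14 FPKM in CFZ, and 3.65 and 2.37 FPKM in control. Both CFZ_EA libraries lay above both CFZ libraries, though CFZ_EA replicate 1 exceeded CFZ replicate 1 only slightly, and the control libraries spanned nearly the whole range. For CFZ_EA against CFZ the log2 fold change was 0.44 ± 0.29 (SE), with a 95% interval of -0.27 to 1.15 (edgeR adjusted p = 1). Without CFZ replicate 2 it was 0.24, and without CFZ replicate 1 it was 0.67. CFZ against control gave -0.17 ± 0.29 (edgeR adjusted p = 0.893), and its sign changed when control replicate 1 (0.26) or CFZ replicate 2 (0.03) was left out. For CFZ_EA against control it was 0.27 ± 0.29 (edgeR adjusted p = 0.897), and leaving out control replicate 2 or 1 gave -0.06 or 0.71.

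Ppargc1b (ENSMUSG00000033871), the other coactivator, measured 1.22 and 1.29 FPKM in CFZ_EA, 1.49 and 1.10 FPKM in CFZ, and 1.05 and 1.18 FPKM in control. The CFZ libraries enclosed the CFZ_EA libraries, and the log2 fold change between them was -0.03 ± 0.21, with an interval of -0.55 to 0.49. Against control, CFZ_EA had 0.23 ± 0.21 (edgeR adjusted p = 0.884) and CFZ had 0.26 ± 0.21 (edgeR adjusted p = 0.77). The value for CFZ was 0.08 without CFZ replicate 1 and 0.42 without CFZ replicate 2. Set against each other, Ppargc1a was 2.64 and 2.95 times Ppargc1b in FPKM in CFZ_EA, 2.09 and 1.95 times in CFZ, and 3.46 and 2.01 times in control. The CFZ_EA ratios lay above the CFZ ratios, and the control ratios enclosed both CFZ_EA ratios.

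Esrra (ENSMUSG00000024955, GRCm38 chr19:6910977-6921808), which encodes the orphan receptor ERRalpha, was the steadiest of the 10 genes in FPKM: its highest library was 1.12 times its lowest. That rank did not hold on TMM-scaled CPM. It measured 44.0 and 40.9 FPKM in CFZ_EA, 42.9 and 43.0 FPKM in CFZ, and 39.1 and 40.5 FPKM in control. Every library of both carfilzomib groups lay above both control libraries. The log2 fold changes were 0.17 ± 0.11 for CFZ against control (interval -0.10 to 0.43, edgeR adjusted p = 0.718) and 0.15 ± 0.11 for CFZ_EA against control (interval -0.11 to 0.42, edgeR adjusted p = 0.866), and the 2 comparisons share the control libraries. Between CFZ_EA and CFZ the value was -0.01 ± 0.11, and its interval of -0.27 to 0.25 allows at most a 1.19-fold higher level in CFZ_EA. Exons of Esrra overlap exons of Trmt112 on the other strand (13.5 FPKM), and whether counting used strand is not given in the sources used here, so part of its count is uncertain.

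Nrf1 (ENSMUSG00000058440, GRCm38 chr6:30047988-30153458), a factor for nuclear genes of the respiratory chain, measured 0.601 and 0.470 FPKM in CFZ_EA, 0.781 and 0.469 FPKM in CFZ, and 0.562 and 1.25 FPKM in control. Control replicate 2 was 1.25 FPKM and the other 5 libraries were 0.469 to 0.781 FPKM, with overlap between all groups. In the fit with no filter on low values, over 26835 genes, the log2 fold change was -0.22 ± 0.36 for CFZ_EA against CFZ (edgeR adjusted p = 1), -0.41 ± 0.36 for CFZ against control (adjusted p = 0.804) and -0.63 ± 0.36 for CFZ_EA against control (adjusted p = 0.892). These rest on 340 to 709 counts per library. Control replicate 2 is the library with the high fibroblast and macrophage markers, and their part in the Nrf1 value was not tested.

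Tfam (ENSMUSG00000003923, GRCm38 chr10:71225464-71238280) measured 4.86 and 5.31 FPKM in CFZ_EA, 5.62 and 5.36 FPKM in CFZ, and 5.46 and 4.88 FPKM in control. The CFZ_EA libraries were both below the CFZ libraries, by a log2 fold change of -0.10 ± 0.16 with an interval of -0.48 to 0.28. That value was -0.01 without CFZ_EA replicate 1 and -0.18 without CFZ_EA replicate 2. CFZ against control gave 0.14 ± 0.16, and -0.0068 without control replicate 2. For CFZ_EA against control it was 0.04 ± 0.16 and turned to -0.03 when counts were scaled by library totals alone. In FPKM the highest library of Tfam was 1.16 times the lowest, a narrower range than that of any other of the 10 genes except Esrra.

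**Figure D3:**
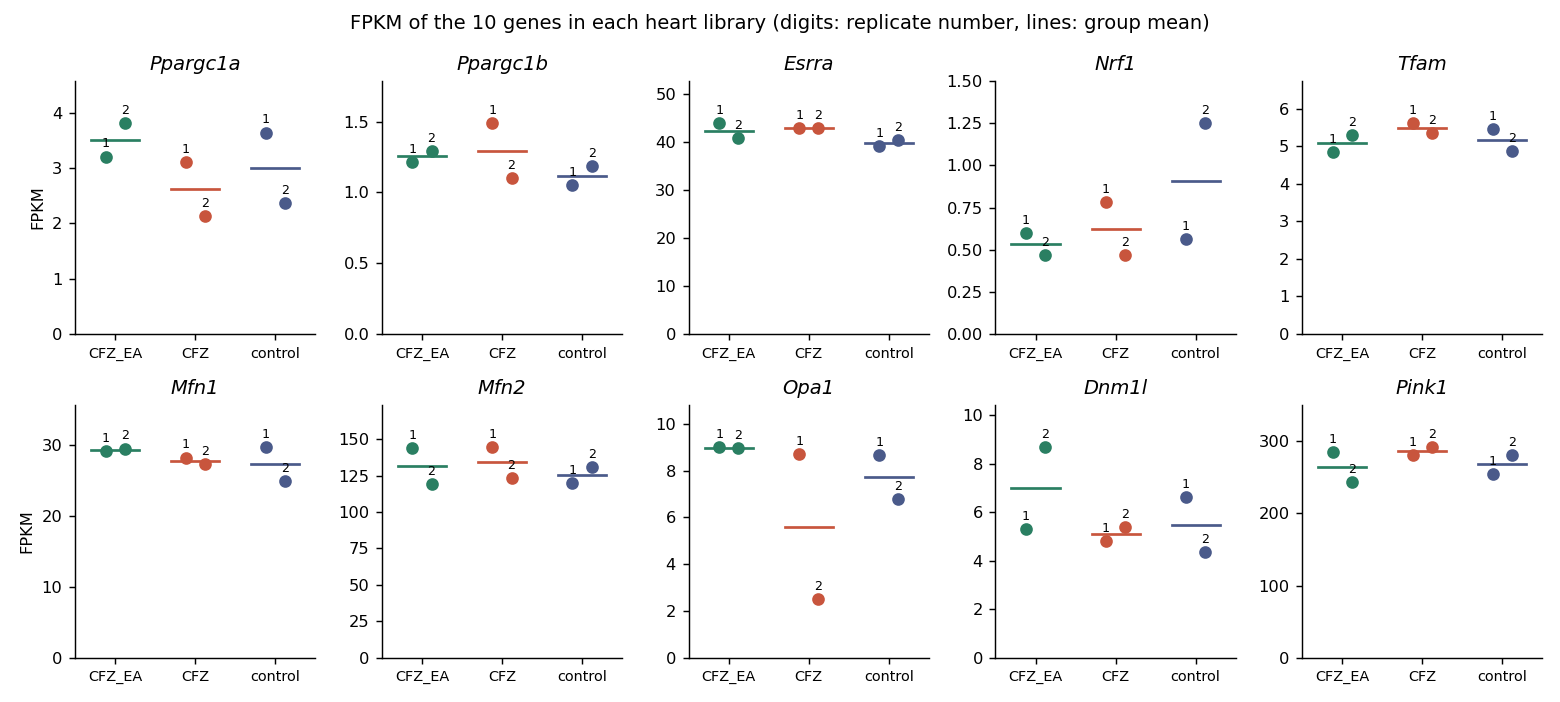
FPKM of each gene in every library, with groups CFZ_EA, CFZ and control from left to right, points numbered by replicate and horizontal lines at group means. Each panel has its own axis starting at 0. Opa1 in CFZ replicate 2 (2.51 FPKM), Nrf1 in control replicate 2 (1.25 FPKM) and Dnm1l in CFZ_EA replicate 2 (8.69 FPKM) lie away from their group partner.

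No difference in the mitofusin genes passed the test. Mfn1 (ENSMUSG00000027668, GRCm38 chr3:32529465-32579239) measured 29.1 and 29.5 FPKM in CFZ_EA, 28.2 and 27.2 FPKM in CFZ, and 29.7 and 24.9 FPKM in control. Both CFZ_EA libraries lay above both CFZ libraries, while control held the highest and the lowest value of the 6. The log2 fold change for CFZ_EA against CFZ was 0.09 ± 0.15 (interval -0.28 to 0.46), and with single libraries left out it ran from 0.06 to 0.12. Against control it was 0.16 ± 0.15 for CFZ_EA and 0.07 ± 0.15 for CFZ, and both turned negative without control replicate 2 (-0.02 and -0.11).

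Mfn2 (ENSMUSG00000029020, GRCm38 chr4:147873599-147904704), the mitofusin that also tethers mitochondria to the endoplasmic reticulum, measured 144 and 119 FPKM in CFZ_EA, 145 and 123 FPKM in CFZ, and 120 and 131 FPKM in control. The 3 groups overlapped in FPKM. Scaled with TMM factors, which lower control replicate 2 and raise CFZ replicate 2, the values were 823 and 697 CPM in CFZ_EA, 803 and 734 CPM in CFZ, and 692 and 692 CPM in control, and both carfilzomib groups lay above control. The log2 fold changes were -0.02 ± 0.14 for CFZ_EA against CFZ (interval -0.35 to 0.32), 0.15 ± 0.14 for CFZ against control (edgeR adjusted p = 0.79) and 0.14 ± 0.14 for CFZ_EA against control (edgeR adjusted p = 0.894). In FPKM, Mfn2 was 4.96 and 4.05 times Mfn1 in CFZ_EA, 5.14 and 4.53 times in CFZ, and 4.03 and 5.27 times in control, so Mfn2 was the main mitofusin transcript in every library and the groups overlapped.

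Opa1 (ENSMUSG00000038084, GRCm38 chr16:29579334-29654884) showed the largest deviation of any of the 10 genes, in a single library. It measured 9.01 and 8.95 FPKM in CFZ_EA, 8.69 and 2.51 FPKM in CFZ, and 8.68 and 6.77 FPKM in control. CFZ replicate 2 held 1375 counts, against 2934 to 5855 in the other libraries. The CFZ libraries differed 3.23-fold after TMM scaling, and 123 of the 10329 tested genes (1.19%) differed as much between them. The log2 fold change was 0.72 ± 0.50 for CFZ_EA against CFZ (interval -0.51 to 1.95, edgeR adjusted p = 1) and -0.44 ± 0.50 for CFZ against control (interval -1.67 to 0.79, edgeR adjusted p = 0.833). Without CFZ replicate 2 these became 0.11 and 0.17, and without CFZ replicate 1 they became 1.80 and -1.53. For CFZ_EA against control it was 0.27 ± 0.50 (edgeR adjusted p = 0.944), with both CFZ_EA libraries above both control libraries, and leaving out control replicate 2 or 1 gave 0.05 or 0.55. No other gene of GENCODE M21 overlaps Opa1.

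Dnm1l (ENSMUSG00000022789, GRCm38 chr16:16312230-16358959), the fission GTPase, had 1 library well above the rest. It measured 5.32 and 8.69 FPKM in CFZ_EA, 4.80 and 5.39 FPKM in CFZ, and 6.62 and 4.34 FPKM in control. CFZ_EA replicate 2 exceeded all other libraries, and CFZ_EA replicate 1 lay between the control libraries and below CFZ replicate 2. The log2 fold change was 0.47 ± 0.33 for CFZ_EA against CFZ (interval -0.33 to 1.27, edgeR adjusted p = 1), -0.06 ± 0.33 for CFZ against control (-0.39 to 0.36 with single libraries left out) and 0.41 ± 0.33 for CFZ_EA against control (edgeR adjusted p = 0.877). Without CFZ_EA replicate 2 the first was 0.05 and the last -0.01. That library also had the 5905 FPKM of atrial markers. Opa1 was 1.69 and 1.03 times Dnm1l in FPKM in CFZ_EA, 1.81 and 0.465 times in CFZ, and 1.31 and 1.56 times in control, with overlap of all 3 groups.

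Pink1 (ENSMUSG00000028756, GRCm38 chr4:138313409-138326307), the kinase that accumulates on depolarised mitochondria, measured 285 and 243 FPKM in CFZ_EA, 281 and 292 FPKM in CFZ, and 255 and 281 FPKM in control. CFZ_EA held the second highest and the lowest library. The log2 fold change was -0.11 ± 0.13 for CFZ_EA against CFZ (interval -0.44 to 0.22; -0.01 without CFZ_EA replicate 2, -0.03 without CFZ replicate 2, -0.20 without CFZ_EA replicate 1 and -0.19 without CFZ replicate 1), 0.16 ± 0.13 for CFZ against control (edgeR adjusted p = 0.778, and 0.08 without CFZ replicate 2) and 0.05 ± 0.13 for CFZ_EA against control, the last turning to -0.02 with library totals alone.

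**Figure D4:**
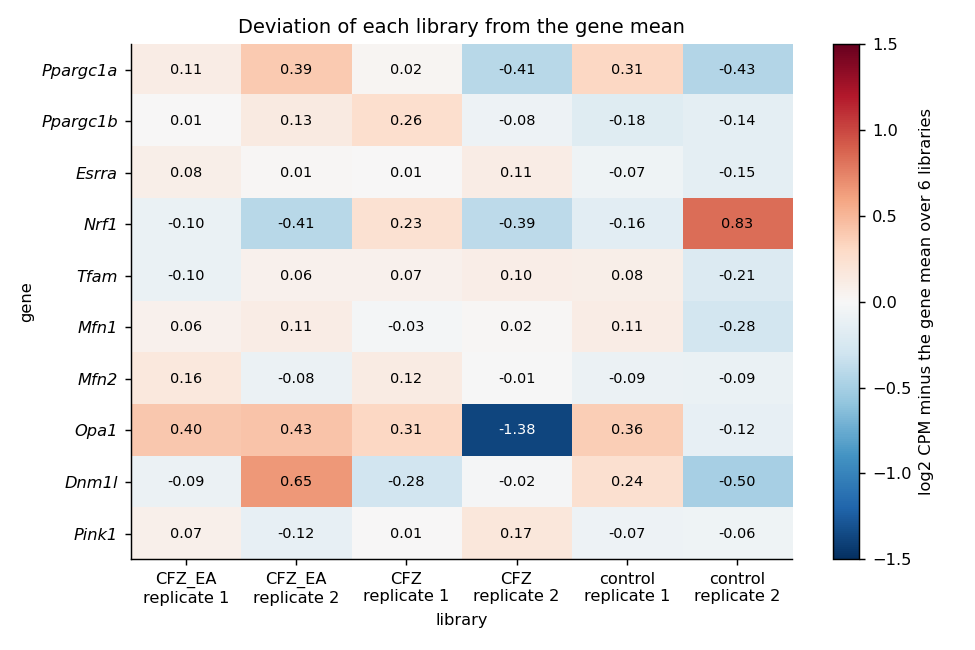
Log2 CPM of each gene (rows) in each library (columns) minus the mean of that gene over 6 libraries, with the value printed in each cell. The most negative cell is Opa1 in CFZ replicate 2 (-1.38), and the most positive are Nrf1 in control replicate 2 (0.83) and Dnm1l in CFZ_EA replicate 2 (0.65).

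Ppargc1a, Opa1 and Dnm1l deviated most among the tested genes, and all were below their own mean in CFZ replicate 2 and control replicate 2. The centred log2 CPM in these libraries was -0.41 and -0.43 for Ppargc1a, -1.38 and -0.12 for Opa1, and -0.02 and -0.50 for Dnm1l. Their longest transcripts have 41.7%, 43.6% and 40.9% GC, against a median of 51.1% over 9272 tested protein-coding genes. A GC share below that median was not particular to them: Tfam has 44.9%, Nrf1 45.4%, Mfn1 45.9% and Esrra 50.3%, and Nrf1 was above its mean in control replicate 2 (0.83). Nor was a low value: all other tested members were below their mean in control replicate 2, from -0.28 (Mfn1) to -0.06 (Pink1). In CFZ replicate 2 Ppargc1b (-0.08) and Mfn2 (-0.0085) were below their mean, and Esrra, Tfam, Mfn1 and Pink1 were above it. Ppargc1b, Mfn2 and Pink1 have 57.8%, 53.1% and 59.0% GC, above the median. In control replicate 2 the 20% of genes lowest in GC had a median deviation of -0.12 and the 20% highest in GC one of 0.099 (log2). In CFZ replicate 2 the 20% with the longest transcripts had a median of -0.071 and the 20% with the shortest 0.082. The part of these shifts in the values of the genes was not tested.

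Groups that do not overlap were common among all genes at this sample size, and the members are read against that share. On TMM-scaled log2 CPM, 4 of 9 tested members did not overlap for CFZ_EA against CFZ (Ppargc1a, Mfn1 and Opa1 above, Tfam below), where 33.4% of all genes did not. Summed atrial and fibroblast markers did not overlap in that comparison either, with CFZ_EA above CFZ, nor did endothelial markers, with CFZ_EA below CFZ. The part of these markers in the members' values was not tested. For CFZ against control 4 of 9 lay above control (Ppargc1b, Esrra, Mfn2 and Pink1) and 0 below, against 18.4% above and 18.7% below over all genes (37.2% in either direction). For CFZ_EA against control 4 of 9 lay above (Ppargc1b, Esrra, Mfn2 and Opa1) and 0 below, against 16.6% and 17.8% (34.4% in either direction). In FPKM, which leaves out the TMM factors, 3 of 9 lay above and 1 below for CFZ_EA against CFZ, where 15.1% of all genes lay above and 17.7% below (32.8% in all). Between CFZ and control 1 of 9 lay above and 0 below (12.5% and 20.8% of all genes, 33.3% in all), and for CFZ_EA against control 3 of 9 lay above and 0 below (10.5% and 22.1%, 32.6% in all). All 9 log2 fold changes for CFZ_EA against control were positive, against 49.7% of those of all genes tested. Their median was 0.16 against -0.0013 over all genes tested, but those of Tfam and Pink1 were negative with library totals alone. All 9 members lay below their own mean in control replicate 2. Without that library the values that turned negative included those of Ppargc1a (-0.06) and Mfn1 (-0.02). Over all runs with a single library left out, the lowest values of Tfam (-0.11), Pink1 (-0.047) and Dnm1l (-0.011) were also negative.

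Further genes of fusion, fission and inner membrane shape were mostly higher in CFZ than in control by small amounts. Of the 33 genes in that list 28 were tested, 26 of the 28 had a positive log2 fold change against 49.5% of all genes tested, and the median was 0.16 against -0.0034. In this list and the 3 that follow, 0 genes were called by edgeR or by DESeq2 in any comparison. Here 0 had an unadjusted p under 0.05 by edgeR. Without control replicate 2 the median was 0.11, and without CFZ replicate 2 it was also 0.11. With library totals alone it was 0.11 against -0.061 over all genes. Mtfp1, an inner membrane protein that promotes fission, measured 124 and 121 FPKM in CFZ against 107 and 97.9 FPKM in control (log2 fold change 0.31 ± 0.13, edgeR adjusted p = 0.649). Rhot2, an outer membrane GTPase that links mitochondria to motor proteins, measured 34.8 and 36.4 FPKM in CFZ against 31.0 and 29.5 FPKM in control (0.29 ± 0.13, edgeR adjusted p = 0.651). Both genes separated the 2 groups without being called. In the same contrast both controls had the lower cardiomyocyte marker levels given above. They also had the higher erythroid, epicardial, macrophage, fibroblast and atrial marker levels. The part of these markers in the list's values was not tested.

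With electroacupuncture the same list had 22 of 28 tested genes lower in CFZ_EA than in CFZ, at a median of -0.06 against -0.0084 over all genes, and 0 called (1 had an unadjusted p under 0.05). The median was -0.02 without CFZ_EA replicate 2 and -0.04 without CFZ replicate 2. Atrial and fibroblast markers were higher, and endothelial markers lower, in both CFZ_EA libraries than in both CFZ libraries, and their part was not tested. Rhot2 measured 28.7 and 26.3 FPKM in CFZ_EA against 34.8 and 36.4 FPKM in CFZ (log2 fold change -0.36 ± 0.13, unadjusted p = 0.0276, edgeR adjusted p = 1). Its paralogue Rhot1 went the other way, with 4.72 and 4.61 FPKM in CFZ_EA against 3.11 and 3.86 FPKM in CFZ (0.42 ± 0.22, edgeR adjusted p = 1). Against control, CFZ_EA had 21 of 28 genes higher with a median of 0.09, which was 0.03 with library totals alone and 0.04 without control replicate 2 or without CFZ_EA replicate 1, and 0.16 without control replicate 1 or without CFZ_EA replicate 2 (0 called, 2 with an unadjusted p under 0.05). There Rhot1 had 0.68 ± 0.22 (edgeR adjusted p = 0.848) and Mff, the outer membrane receptor for Dnm1l, had 0.54 ± 0.22 (edgeR adjusted p = 0.848), with 4.11 and 6.25 FPKM in CFZ_EA against 3.73 and 3.74 FPKM in control. As for Dnm1l, the higher Mff library was CFZ_EA replicate 2.

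The list of mitochondrial DNA maintenance and nuclear co-regulators had 23 of 26 genes tested. For CFZ_EA against CFZ 11 were higher and 12 lower (median -0.02), for CFZ against control 18 were higher (median 0.14), and for CFZ_EA against control 15 were higher (median 0.08). By edgeR 0, 1 and 1 of them had an unadjusted p under 0.05. The median for CFZ_EA against CFZ turned positive without CFZ_EA replicate 2 (0.05), CFZ replicate 1 (0.0026) or CFZ replicate 2 (0.01). Leaving out control replicate 2 or 1 gave -0.03 or 0.26 for CFZ against control, and for CFZ_EA against control it ran from 0.02 without control replicate 2 to 0.16 without control replicate 1. Esrrb, an oestrogen-related receptor like Esrra, measured 5.85 and 6.20 FPKM in CFZ against 4.97 and 4.10 FPKM in control (log2 fold change 0.46 ± 0.17, unadjusted p = 0.0351, edgeR adjusted p = 0.619). In CFZ_EA it measured 5.19 and 4.89 FPKM, below both CFZ libraries (-0.25 ± 0.17, edgeR adjusted p = 1). Mgme1, a nuclease of mitochondrial DNA, measured 3.07 and 2.87 FPKM in CFZ_EA, 2.82 and 2.88 FPKM in CFZ, and 2.33 and 2.29 FPKM in control. Its log2 fold changes against control were 0.42 ± 0.16 in CFZ_EA and 0.36 ± 0.16 in CFZ (edgeR adjusted p = 0.848 and 0.656). Esrrg, the third receptor of that family, had 0.35 ± 0.17 for CFZ_EA against control, and Polg, the mitochondrial DNA polymerase, had -0.21 ± 0.15 for CFZ_EA against CFZ.

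Among 28 genes of mitophagy and outer membrane ubiquitin handling 26 were tested and 0 had an unadjusted p under 0.05 by edgeR in any comparison. In CFZ_EA against CFZ 15 were lower (median -0.06), in CFZ against control 21 were higher (median 0.07, and 0.02 with library totals alone), and in CFZ_EA against control 17 were higher, with a median of 0.06 that became -0.003 with library totals alone. Single libraries moved these medians. For CFZ_EA against CFZ the median was -0.02 without CFZ_EA replicate 2 or CFZ replicate 2, and -0.09 without CFZ_EA replicate 1 or CFZ replicate 1. For CFZ against control it was 0.01 without CFZ replicate 2, 0.16 without CFZ replicate 1 and 0.17 without control replicate 1, and for CFZ_EA against control it ran from -0.04 without control replicate 2 to 0.13 without control replicate 1. Usp8, a deubiquitinase, measured 4.01 and 4.46 FPKM in CFZ_EA, 3.53 and 3.24 FPKM in CFZ, and 4.76 and 4.24 FPKM in control. Both CFZ libraries were below all others, with log2 fold changes of 0.33 ± 0.16 for CFZ_EA against CFZ and -0.36 ± 0.16 for CFZ against control (edgeR adjusted p = 1 and 0.656). Pgam5, a mitochondrial phosphatase, had 0.53 ± 0.26 for CFZ against control, but it measured 15.7 and 13.8 FPKM in CFZ against 7.42 and 14.1 FPKM in control, so the groups overlapped in FPKM. Gabarapl1 had -0.22 ± 0.14 for CFZ_EA against CFZ, and Park7 and Vcp each had 0.12 ± 0.11 for CFZ_EA against control.

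Genes described elsewhere as targets of PGC-1alpha with ERRalpha were all expressed above the minimum, 16 of 16. In CFZ_EA against CFZ 12 were lower (median -0.06), in CFZ against control 14 were higher (median 0.23), and in CFZ_EA against control 14 were higher (median 0.15). At an unadjusted p under 0.05 edgeR gave 1, 0 and 0 of them. For CFZ_EA against CFZ the median was -0.01 without CFZ replicate 2, -0.03 without CFZ_EA replicate 2 and -0.16 without CFZ_EA replicate 1. Against control the medians for CFZ_EA and CFZ were -0.03 and 0.09 without control replicate 2, and 0.38 and 0.39 without control replicate 1. Ndufb5, a subunit of complex I, had the smallest unadjusted p of any listed gene: it measured 50.5 and 48.5 FPKM in CFZ_EA against 68.7 and 70.9 FPKM in CFZ (log2 fold change -0.49 ± 0.13, unadjusted p = 0.00806, edgeR adjusted p = 1). Vegfa, the vascular endothelial growth factor, measured 26.5 and 26.4 FPKM in CFZ_EA, 19.9 and 20.1 FPKM in CFZ, and 26.9 and 18.6 FPKM in control (0.41 ± 0.22 for CFZ_EA against CFZ, edgeR adjusted p = 1). Cycs, cytochrome c, had 0.37 ± 0.17 and Ucp2, an uncoupling protein also abundant in leukocytes, had -0.89 ± 0.41 for CFZ against control (edgeR adjusted p = 0.66 and 0.658). Ucp2 measured 4.44 and 10.8 FPKM in CFZ_EA, 6.82 and 7.45 FPKM in CFZ, and 11.3 and 16.3 FPKM in control, the highest value being in the library with the most macrophage markers, whose part in it was not tested. Sod2 had 0.26 ± 0.14 for CFZ_EA against control. Pdk4, named after its values were seen, had the highest value in the list for CFZ against control (0.99) and the lowest for CFZ_EA against CFZ (-0.95), with 33.1 and 122 FPKM in the CFZ libraries, so 1 library set both.

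**Figure D5:**
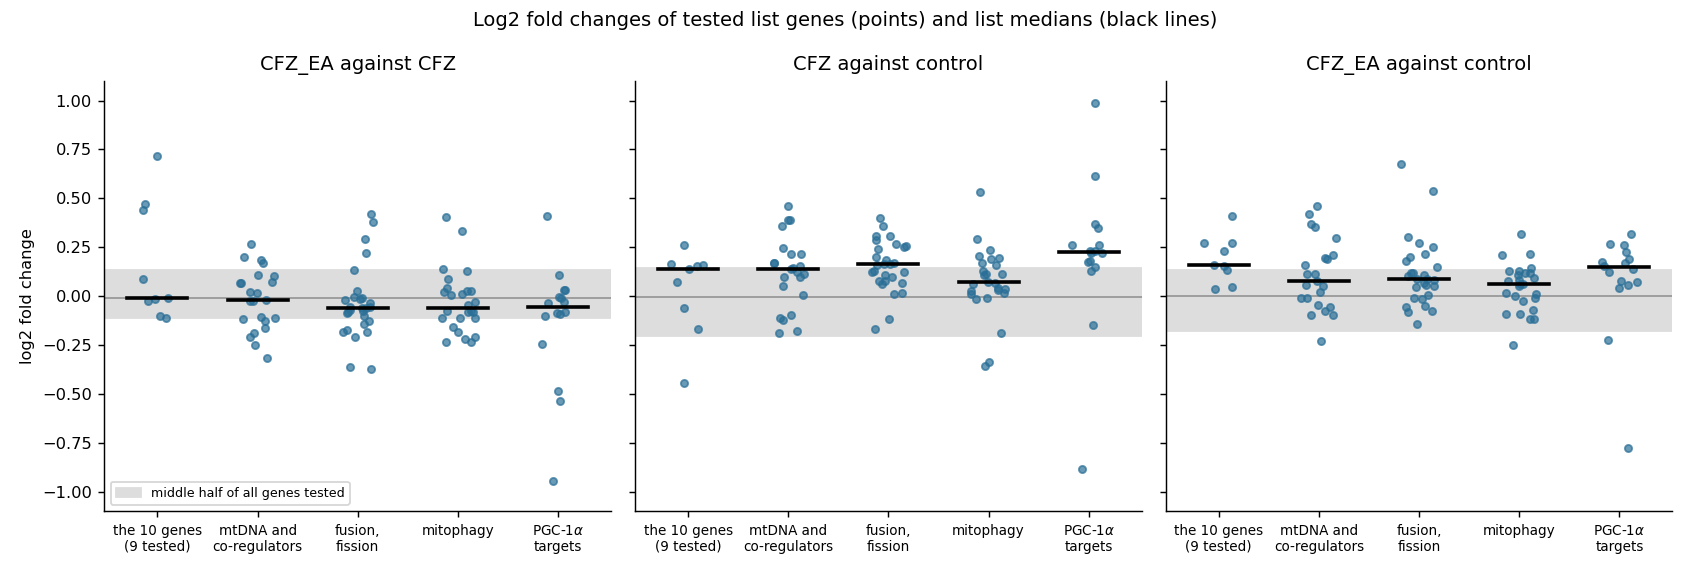
Log2 fold changes of the 9 tested members and of the tested genes of 4 related lists (points) in 3 comparisons, with list medians as black lines and the middle 50% of all genes tested as a grey band. For CFZ against control 26 of 28 fusion and fission genes lie above 0, at a median of 0.16.

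The genes whose pattern over the 6 libraries was closest to a member were found from the root mean square difference of centred log2 CPM among 9271 protein-coding genes. For Ppargc1a they were Syap1 (0.074), Casd1 (0.077) and Daam1 (0.083), where the median gene was at 0.37. For Mfn2 they were Nek9 (0.023), Tmem268 (0.024) and Pde4dip (0.027), and for Pink1 they were Klhdc2 (0.023), Trappc3 (0.029) and 1700030K09Rik (0.029), with a median of 0.19 for both. With 6 libraries, close matches are easily found among so many genes.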

How the data were processed

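Heart RNA of 6 libraries was measured. Per the labels' protocols, poly(A) RNA with an integrity number above 7 was sequenced as 150-base read pairs from dUTP libraries. GRCm38, StringTie 1.3.4d, HISAT2 2.0.4 and cutadapt 1.9 are named in the submitters' processing notes. Not given in the sources used here were the annotation release and the strand setting of the counting. The authors deposited, per the file headers, FPKM and a count per gene and library. The deposited count values were taken as estimated counts, since 42.2% to 43.3% of those from 1 to 20 were multiples of 4 (25% by chance), so counting error may be larger than they show. Among 9679 genes with at least 100 counts in every library, count over FPKM was constant within 1% for 98.5%, so both columns hold 1 measurement.

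Genes averaging 1 FPKM or more were tested, on counts rounded to whole numbers, with edgeR 4.0.16 (quasi-likelihood, R 4.3.3): TMM factors of 0.957 to 1.08, group as the only term, all 6 libraries in 1 fit, Benjamini-Hochberg adjustment over all genes, called under 0.05. Standard errors and 95% intervals come from that fit. The smallest p an exact two-sided test could give with 2 libraries per group is 0.333, so none was used. The steps were tested on simulated counts with planted changes larger than the members' fold changes in the main fit. That run does not show how smaller changes fare. Alternatives were DESeq2 1.42.0, limma 3.58.1 on log2(FPKM + 1) and log2(FPKM + 0.1), other scalings and filters, the 2 compared groups only, the replicate number as a block, counts divided by 4 and left-out libraries. The rescaling to the longest transcript, the unfiltered value of Nrf1, the list medians under other scalings and the shares of all genes called by DESeq2, by limma or without overlap in FPKM were added after seeing the data. The members, the 4 gene lists and the markers were chosen with earlier results of these data known. Named list genes were, per list and comparison, the 2 with the smallest unadjusted p among those whose groups do not overlap in log2 CPM. Figures used Python 3.11.15 and matplotlib 3.10.9.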

Additional observations from a re-analysis of the deposited data

How the results depend on the processing

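No member was called by any alternative run. Of 162 values with a single library left out 143 kept their direction and 19 reversed, and of 324 values under other settings 310 kept it and 14 reversed. These totals do not measure stability, since many of the runs could hardly turn a sign. Some left out a library of neither compared group. For CFZ against control, Ppargc1a had -0.166 in the main fit and -0.169 without CFZ_EA replicate 1. Some settings also barely moved the estimates, such as counts divided by 4 (-0.165). Counts over all genes moved more, from 2 higher and 0 lower (CFZ_EA against CFZ), 0 and 3 (CFZ against control) and 0 and 0 (CFZ_EA against control). DESeq2 called 38 and 17, 27 and 111, and 26 and 25 in these comparisons. For CFZ against control 1 gene was called higher with no filter and with edgeR's filterByExpr, 1 lower with counts divided by 4 and 0 lower with only the groups compared. For CFZ_EA against CFZ 1 gene was called higher with counts divided by 4 and 1 lower with only the groups compared. With control replicate 2 and CFZ_EA replicate 2 both left out, CFZ against control had 15 higher and 17 lower, CFZ_EA against CFZ had 1 lower and CFZ_EA against control had 1 higher. With single libraries left out the calls ran from 0 to 4 higher and 0 to 1 lower for CFZ_EA against CFZ, from 0 to 24 and 0 to 308 for CFZ against control, and from 0 to 20 and 0 to 211 for CFZ_EA against control, the highest for both control contrasts being without control replicate 1. The cause was not tested.

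Some signs turned. For CFZ_EA against control, Tfam and Pink1 were -0.027 and -0.022 with library totals alone, -0.020 and -0.022 with limma on log2(FPKM + 1), and -0.023 and -0.022 on log2(FPKM + 0.1). With both libraries left out, CFZ_EA against CFZ gave 0.029 for Esrra and 0.10 for Mfn2, CFZ against control gave -0.0068 for Tfam and -0.11 for Mfn1, and CFZ_EA against control gave -0.20 for Ppargc1a, -0.18 for Tfam, -0.047 for Mfn1 and -0.33 for Dnm1l. With single libraries left out, the log2 fold changes that turned ran, for CFZ_EA against CFZ, from -0.18 to 0.15 for Ppargc1b, -0.062 to 0.046 for Esrra, -0.13 to 0.1 for Mfn2. For CFZ against control they ran from -0.50 to 0.26 for Ppargc1a, -0.0068 to 0.29 for Tfam, -0.11 to 0.28 for Mfn1, -1.5 to 0.17 for Opa1, -0.39 to 0.36 for Dnm1l, and for CFZ_EA against control from -0.056 to 0.71 for Ppargc1a, -0.11 to 0.20 for Tfam, -0.023 to 0.38 for Mfn1, -0.011 to 0.83 for Dnm1l, -0.047 to 0.14 for Pink1.

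No pairing by replicate number was visible. Deviations of same-numbered libraries correlated across genes at 0.075 for CFZ_EA against CFZ, -0.066 for CFZ against control and -0.055 for CFZ_EA against control. With 2 libraries per group these values cannot settle whether samples were paired. With the replicate number as a block, 2 higher and 0 lower, 0 and 2, and 0 and 0 genes were called. With 2 libraries per group, a difference in a member too small to move its interval off 0 was not detectable. The intervals are not adjusted for the number of genes tested, while the calls are, so larger differences could also be missed. Ndufb5, a listed gene that is not a member, had -0.49 ± 0.13 for CFZ_EA against CFZ (edgeR unadjusted p = 0.00806) and was not called.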
